A study of Caenorhabditis elegans with 2 samples.

Results

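Histone genes of Caenorhabditis elegans were examined for binding of MDT-29, a subunit of Mediator, the complex that links transcription factors to RNA polymerase II. The genes were the protein-coding genes with symbols in his-, together with htz-1 and the hil- genes, in the Ensembl annotation of the WBcel235 genome, 81 of the 19973 nuclear protein-coding genes. DNA bound by MDT-29 was pulled down with an antibody to GFP and sequenced (ChIP-seq, chromatin immunoprecipitation). Both samples were whole L4 larvae collected at 48 hours after starved L1 larvae had been synchronized by bleaching. Both came from strain RJP4521, in which CRISPR placed a degron and GFP on the mdt-29 gene itself (written rp133 (Degron::GFP::mt-29) III in the labels). The 2 samples are biological replicates of this 1 group, so no condition was compared. An untagged strain was not analysed here. A whole larva holds germ line and soma together, so the share of cells bound and the occupancy per cell cannot be told apart.

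Histones package DNA into nucleosomes. The core histones H2A, H2B, H3 and H4 form the particle itself, and linker histones of the H1 family sit on the DNA between particles. Most core histone genes are replication-dependent: they are expressed in S phase, have no introns, lie in clusters of divergently transcribed H3/H4 and H2A/H2B pairs, and make messenger RNAs that end in a hairpin in place of a poly(A) tail. Variant histones such as H2A.Z and H3.3 are put into chromatin outside replication as well.

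By position and type, the 81 genes were 65 core genes in clusters, 1 lone core gene (his-73), 6 variant genes (htz-1 for H2A.Z, and his-69, his-70, his-71, his-72 and his-74 of the H3.3 group) and 9 linker genes (his-24 and hil-1 to hil-8). A cluster was a chain of members whose gene bodies lay within 5 kb of each other. There were 14 clusters, which held 67 of the genes, his-69 and his-70 included. Ensembl gives only 59 distinct symbols to the 81 genes, so each was named by the RefSeq symbol at identical coordinates, which changed the name of 22. The copies encode nearly the same proteins. All 16 H4 genes encode 1 protein of 103 residues, all 15 H3 genes encode 1 protein of 136 residues, and 15 of the 17 H2A genes encode the same protein of 127 residues. The 16 H2B genes encode 4 proteins.

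A gene was called bound when a peak summit of the authors' thresholded list from both samples (1705 peaks, called the main list here) lay within 500 bp of a 5' end of one of its transcripts. Peak lists of each sample alone were shorter, with 777 peaks in replicate 1 and 1050 in replicate 2. Ranked lists made before the threshold held 68737 and 74857 peaks. Values below are the authors' own signal per peak, and numbers of reads are not given in the lists, so the depth behind a value is unknown. For 64 of the 81 genes the only annotated 5' ends are start codons, so distances at those genes are from the start codon.

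The DNA under some of the histone peaks is shown first, because the histone peaks lay on unlike kinds of sequence: promoters, a coding region and the far end of a gene. The windows of the peak at the far end of his-66 and of the peak between his-67 and his-68 are not printed. Sequences are from the RefSeq WBcel235 (ce11) genome, read 5' to 3', and span 100 bases on each side of the main summit. Capitals mark matches, on either strand, to the TATA box word TATAAA, to the octamer word ATTTGCAT, to the heat shock element word TTCNNGAA, to the E-box word CACGTG, to the CCAAT box, or to GGGACACAT, a word described further on. The his-37 window (chrV:9546903-9547103, plus strand) ends just before the annotated start of the gene. The htz-1 window (chrIV:4445846-4446046, plus strand) lies between htz-1 and its divergent neighbour. The his-72 window (chrIII:12369145-12369345, minus strand) lies upstream of the gene. The window of the peak at his-60 and his-59 (chrIV:7487674-7487874, plus strand) lies mostly inside his-60, which is read from the opposite strand.
his-37: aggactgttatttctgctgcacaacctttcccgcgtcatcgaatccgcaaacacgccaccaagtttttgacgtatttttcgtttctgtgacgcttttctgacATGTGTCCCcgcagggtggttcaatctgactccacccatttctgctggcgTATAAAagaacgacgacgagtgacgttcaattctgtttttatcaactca
htz-1: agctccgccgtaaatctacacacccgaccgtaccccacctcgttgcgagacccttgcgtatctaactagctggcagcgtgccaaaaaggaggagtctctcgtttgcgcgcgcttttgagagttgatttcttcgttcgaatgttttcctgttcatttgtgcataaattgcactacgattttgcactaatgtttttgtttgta
his-72: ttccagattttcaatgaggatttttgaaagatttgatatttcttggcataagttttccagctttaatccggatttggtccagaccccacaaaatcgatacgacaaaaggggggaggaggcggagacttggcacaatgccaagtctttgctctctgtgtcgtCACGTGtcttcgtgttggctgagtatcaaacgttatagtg
his-60 and his-59: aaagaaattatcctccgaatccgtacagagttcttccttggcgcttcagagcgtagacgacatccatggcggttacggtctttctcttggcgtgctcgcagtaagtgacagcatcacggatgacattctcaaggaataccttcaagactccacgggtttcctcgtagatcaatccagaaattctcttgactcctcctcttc

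MDT-29 was bound at 8 of the 81 histone genes. They were the H4 genes his-37, his-60 and his-67, the H2A gene his-68, the H2B gene his-66, the H3 gene his-59, the H2A.Z gene htz-1 and the H3.3 gene his-72. This was 9.88% of the histone genes, against 3.54% of all nuclear protein-coding genes and 28.2% of the 78 cytosolic ribosomal protein genes (rpl and rps), another large family of housekeeping genes. The 8 genes rested on 6 distinct peaks, since his-67 and his-68 shared a peak and his-60 and his-59 shared another. By class, 6 of 65 clustered core genes (9.23%), 2 of 6 variants, 0 of 9 linker genes and 0 of 1 lone core genes were bound. By type, 3 of 16 H4, 1 of 17 H2A, 1 of 16 H2B, 1 of 15 H3 and 1 of 5 H3.3 genes were bound. Clustered genes share peaks and are copies of each other, so the classes were not tested against each other.

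The calls depended on the sample. The list of replicate 1 alone gave only his-37 and htz-1 (2 of 81, 2.47%, against 1.69% of all genes). The list of replicate 2 alone gave 7 of 81 (8.64%, against 2.35%), all but his-72. The authors' conservative list gave 7 of 81 (8.64%, against 3.5%), all but his-66. All 6 peaks had a higher signal in replicate 2 than in replicate 1, by 1.27 to 2.31 times; how the authors scaled signal between samples is not stated. With a window of 250 bp, 4 genes were bound (2.11% of all genes), and in the 853 stronger peaks 2 were (1.97% of all genes). With a window of 1000 bp there were 10 (5.09% of all genes), and with any overlap of a peak with the 500 bp window there were 8 (4.05%).

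The strongest peak lay at his-37, the only bound core histone gene with an intron. Its signal was 112.0 in replicate 1 and 166.4 in replicate 2, a mean of 139.2 ± 38.49 (SD, n = 2), and 268.0 in the main list, where it ranked 98 of 1705 (V, 9546922 to 9547118). The summit lay 102 bp upstream of the annotated 5' end, and the summits of the replicates lay 33 bp apart. The gene encodes the same H4 protein as his-1, but 35 of its coding bases differ from those of his-1 (88.7% identical). Its neighbours in the same cluster, the H2A gene his-35 and the H2B gene his-41, also have introns and were not bound. In replicate 1 they had ranked-list peaks of 19.21 at his-35 and 16.28 at his-41. In replicate 2 they shared 1 peak of 26.56, with its summit inside his-41. Both replicates were thus several times higher at his-37 than at the other genes of its cluster.

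The second peak lay at htz-1, which encodes H2A.Z, a variant found at nucleosomes flanking active promoters. Its signal was 61.17 in replicate 1 and 111.2 in replicate 2, a mean of 86.16 ± 35.35 (SD, n = 2), and it ranked 281 of 1705 in the main list (IV, 4445786 to 4446105; signal 162.9). The summit lay 270 bp upstream of htz-1 and 206 bp upstream of wapl-1, a divergent gene for a factor that releases cohesin from chromosomes. Both genes met the rule, so the peak cannot be given to one of them. The his-37 and htz-1 peaks were the only histone peaks that passed the threshold in each sample alone, and the only ones above the main list's median signal of 99.5.

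The 4 other peaks lay in the weaker part of the list. At the divergent pair his-67 (H4) and his-68 (H2A), an exception to the usual pairing of H2A with H2B and H4 with H3, 1 peak lay between the genes (I, 9988863 to 9989182), 260 bp upstream of his-67 and 109 bp upstream of his-68. Its signal was 40.09 in replicate 1 and 58.38 in replicate 2 (49.24 ± 12.93, SD, n = 2), with rank 985 of 1705. At his-72, an H3.3 gene, the summit lay 195 bp upstream (III, 12369085 to 12369404). Its signal was 32.26 and 49.47 in replicates 1 and 2 (40.86 ± 12.17, SD, n = 2), its rank was 1384, and it was in neither sample's own thresholded list. The snoRNA gene Y49E10.36, inside his-72, lay 701 bp from that summit.

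The remaining peaks did not lie at promoters in the usual sense. The peak shared by his-60 and his-59 (IV, 7487614 to 7487933) had its summit inside his-60, 218 bp downstream of its start codon and 475 bp upstream of his-59. Its signal was 34.64 and 43.86 in replicates 1 and 2 (39.25 ± 6.518, SD, n = 2) and its rank was 1269. At his-66 (IV, 11400166 to 11400485) the summit lay 460 bp downstream of the start codon, which is 89 bp beyond the annotated 3' end of this short gene. Its signal was 27.81 in replicate 1 and 64.14 in replicate 2 (45.98 ± 25.69, SD, n = 2), with rank 1019 in the main list but only 5644 in the ranked list of replicate 1. As a ratio, 2.31, this was the widest gap between the replicates among the 6 peaks, though his-37 and htz-1 had larger SDs, and the peak was the only one of the 6 absent from the conservative list.

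**Figure D1:**
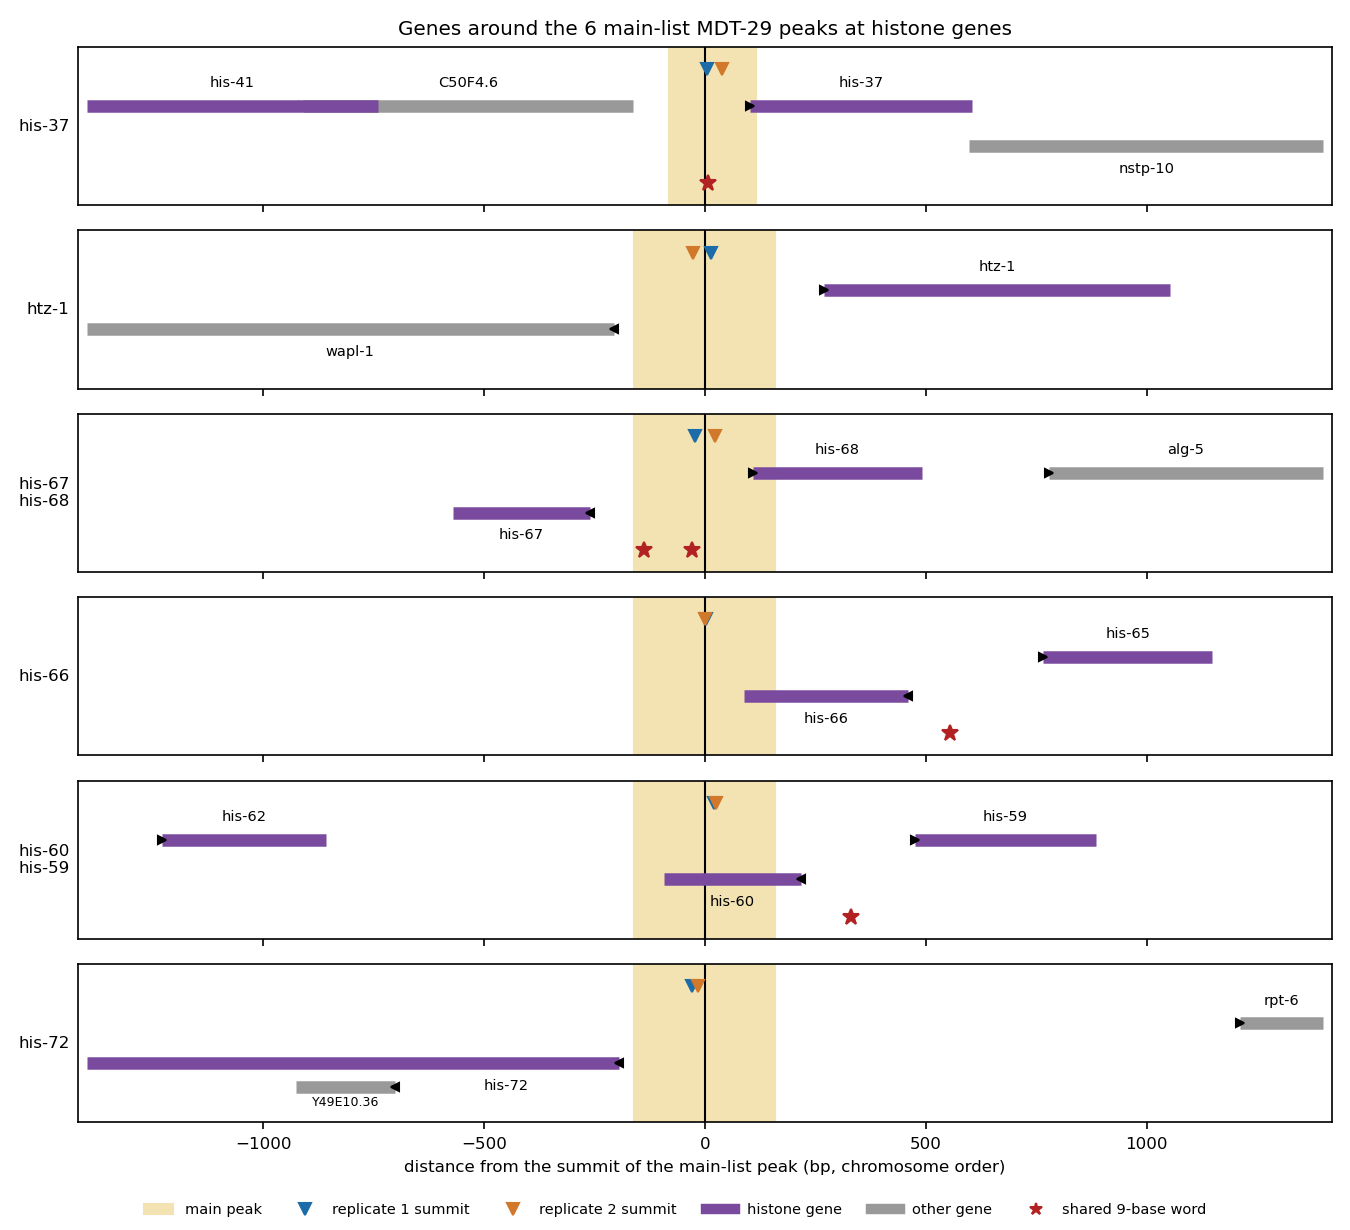
Genes around the 6 main-list peaks. The x axis is the distance from each summit in bp; bars above the middle are genes read left to right, bars below are read right to left, arrowheads mark 5' ends, bars stop at the plot's edge, and stars mark the word GGGACACAT near the summit. The summit lies upstream of a histone 5' end at his-37, htz-1, his-67/his-68 and his-72, inside his-60, and beyond the 3' end of his-66.

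The summit beyond his-66 lay close to the hairpin of replication-dependent histone genes. A search of 100 bases on each side of the summit for the longest perfect hairpin with a loop of 4 bases gave a stem of 6 base pairs, 36 to 51 bp beyond the gene's annotated 3' end (chrIV:11400364-11400379, minus strand; capitals mark the stem).
his-66 hairpin: GGCCCTctttAGGGCC
These letters occurred within 100 bp beyond the 3' end of 52 histone genes, and of 52 genes in all among the 19973 (0.26%). All 52 were clustered core genes with 1 exon (52 of 61, 85.2%), while 0 of 4 clustered core genes with introns and 0 of 16 lone, variant and linker genes had them. Of the 8 bound genes, his-59, his-60, his-66 and his-67 had them and his-37, his-68, htz-1 and his-72 did not. The hairpin was looked for after the his-66 sequence had been seen, and its absence says only that these exact letters are not there. A summit beyond the 3' end was not particular to his-66, as given further on. A summit just past most single-exon clustered core genes would lie near these letters. Around the start codon of his-66 only 7.25% of the sequence occurs once in the genome, by a measure given further on. Close around its summit 100% does in each sample. Whether the place of the summit, and so its closeness to the hairpin, was set by where sequence is unique was not tested.

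Just outside the rule lay his-62 and his-65. At his-62, an H2B gene of the same cluster as his-60 and his-59, the highest signal was 35.48 in replicate 1 and 42.42 in replicate 2, from separate peaks with summits 707 bp apart, and its peak in the list of both samples had a score of 807, under the lowest score in the main list (830). At his-65, the H2A partner of his-66, the score was 764, with no ranked peak in replicate 1 and a signal of 33.25 in replicate 2. The nearest main summit lay 766 bp from his-65 and 788 bp from his-42. A ranked list of both samples held 59 peaks of score 830 or more that are absent from the main list, called peaks taken out. No histone gene lay at any of them.

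The variant and linker genes that were not bound had peaks of up to 26.91 in replicate 1 and 40.5 in replicate 2 in the ranked lists, or none. The H3.3 gene his-71 had signals of 14.77 and 19.44 in replicates 1 and 2, and his-74, also of the H3.3 group, had 7.71 and 10.22. Of the neighbouring H3.3-group genes, his-69 had 19.51 and his-70 had 9.28 in replicate 1, and neither had a peak in replicate 2. All 4 thus lay below his-72 in both samples, and his-72 was below htz-1 in both. Among linker genes, hil-4 had 22.34 and 40.5, hil-3 had 20.03 and 31.08, and hil-5 had 26.91 and 22.34. The order of these 3 differed between the samples, with hil-5 highest in replicate 1 and hil-4 in replicate 2. The H1 gene his-24 had 16.13 in replicate 1 and no peak in replicate 2, hil-2 had 18.27 and none, and hil-6 had none and 16.04. In the ranked list of both samples, though, his-24 had the highest linker peak (signal 61.86, score 522), ahead of hil-4 (58.63, 488). There was no ranked peak at hil-1, hil-7 or hil-8, nor at the lone core gene his-73, in either sample.

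**Figure D2:**
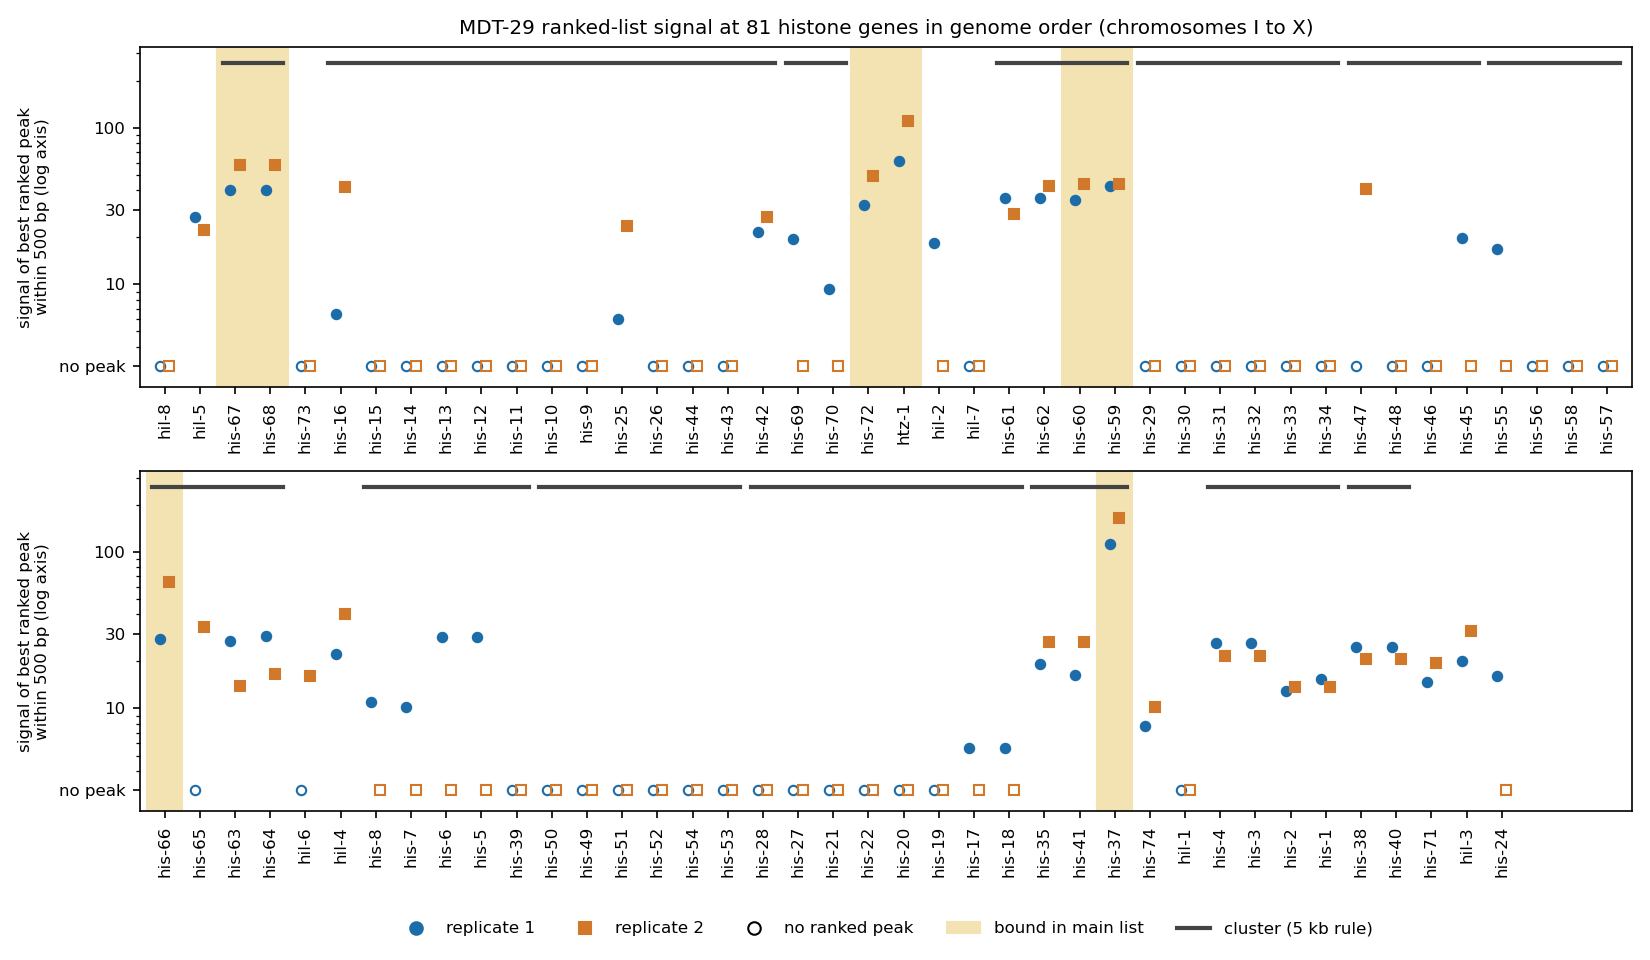
Signal of the highest ranked-list peak within 500 bp of each of the 81 genes, in genome order, on a log axis. Filled symbols are replicate 1 (circles) and replicate 2 (squares), open symbols at the bottom mark no ranked peak, shaded genes are bound in the main list and black bars are clusters. his-37 and htz-1 stand highest in both replicates, and long runs of clustered genes have no peak at all.

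Of the 14 clusters, 10 carried no bound gene, and 2 carried no ranked peak in either sample. A ranked peak within 500 bp was found at 40 of the 81 histone genes in replicate 1 (49.4%, against 56.0% of all genes) and at 31 in replicate 2 (38.3%, against 59.2%). In both samples there was one at 28 genes, in 1 sample at 15, and in neither at 38 (46.9%, against 27.2% of all genes). Where there was a peak, its median signal was 22.03 in replicate 1 and 26.99 in replicate 2, against 18.05 and 20.92 over all genes with a peak. The share with a peak was thus below that of all genes in both samples, and the median signal of the peaks was above it; the share differs when genes are divided by how much of their promoter sequence is repeated, as given further on. The highest peak of a gene need not be the same one in both samples: at 15 of the 28 genes with a peak in both, the summits lay within 100 bp of each other, and at 13, among them the bound gene his-59 and his-35, his-38, his-40, his-41, his-42, his-62, his-71 and his-74, they lay farther apart. At his-59 the highest peak in replicate 1 (42.61) had its summit inside the gene, 772 bp from that of replicate 2. It was not the peak shared with his-60. Of the 28 genes, 19 had the higher signal in replicate 2 and 9 in replicate 1. Neighbours that share a peak, such as his-67 and his-68, count separately here. Neither this split nor that by summit distance was counted over all genes. Over all genes with a peak the median was also higher in replicate 2 (20.92) than in replicate 1 (18.05).

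The clusters differed from one another. The cluster of 13 genes on chromosome II (13817760 to 13828697) had 0 bound genes, and peaks in the ranked lists lay at only 3 genes, those at its ends (his-16 and his-42) and his-25. The H3 gene his-42 had 21.71 and 26.99 in replicates 1 and 2, while his-16 had 6.50 and 41.99. On chromosome IV the 6 genes his-29 to his-34 (8331044 to 8336340) had no ranked peak in either sample. On chromosome V the 6 genes his-49 to his-54 (8847393 to 8854053) had none either, and the 8 genes at 8889488 to 8898539 had 1 weak peak, of 5.555 at his-17 and his-18, in replicate 1 alone. In contrast, all 4 genes his-1 to his-4 (V, 16040144 to 16042831) had peaks in both samples, the highest at his-3 and his-4 with 26.08 and 21.56. The pair his-38 and his-40 on X shared a peak of 24.59 in replicate 1 and another of 20.67 in replicate 2, with summits 423 bp apart.

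Some genes had peaks in 1 sample only. In the cluster at V, 8532715 to 8536716, the H3/H4 pair his-6 and his-5 shared a peak of 28.77 in replicate 1, and none of the 5 genes had one in replicate 2. The H2A gene his-47 had 40.83 in replicate 2 and none in replicate 1, while his-45 of the same cluster had 19.89 in replicate 1 and none in replicate 2. The value at his-5 and his-6 was above that of the bound gene his-66 in the same sample (27.81), and the value at his-47 was just under the lowest bound peak of replicate 2 (43.86).

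How much of each promoter could be told apart from the rest of the genome was therefore measured. For each gene the share of 50-base words within 500 bp of its 5' ends that occur once in the genome, on either strand, was computed. The median was 100% over all genes and over the lone, variant and linker histone genes, but 6.72% over the clustered core genes. For 25 histone genes it was 0, and all 25 lacked a ranked peak in both samples. The length of the reads and the way reads with several matches were treated are not given in the sources used here. With 36-base words, 38 histone genes in place of 37 had under 10% unique words.

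Bound histone genes were mostly those with unique promoters. Within each division by uniqueness the share of histone genes with a ranked peak was above that of other genes in both samples, though nearly equal in replicate 2 in the middle division. Among genes with at least 90% unique words a ranked peak was found at 77.8% of histone genes in replicate 1 and 66.7% in replicate 2, against 57.1% and 60.7% of other genes. Among genes with 10 to 90% it was found at 88.2% and 52.9%, against 50.2% and 50.9%, and among genes with under 10% at 10.8% in each sample, against 1.83% and 0.913%. The middle shares were 15 and 9 of 17 histone genes in replicates 1 and 2, and the lowest were 4 of 37 in each. In the lowest division the mean share of unique words was 1.94% for histone genes and 0.869% for other genes. Clustered genes share peaks, so these shares were not tested. Among genes with at least 90% unique words, 7 of 27 histone genes were bound (25.9%), against 3.58% of 18216 other genes and 27.0% of 74 ribosomal protein genes. In the list of replicate 1 alone the shares were 7.41% of these histone genes, 1.72% of other genes and 18.9% of ribosomal protein genes. In that of replicate 2 alone they were 22.2%, 2.35% and 24.3%. The clustered core genes among the 27 were 12, of which 5 were bound on 3 peaks in the main list. Among genes with 10 to 90%, 0 of 17 histone genes were bound, against 3.09% of 1457 other genes. Among genes with under 10%, 1 of 37 histone genes was bound (his-66), against 0.913% of 219 other genes, and 83.8% of the histone genes and 98.2% of the others had no ranked peak in either sample. These divisions were chosen after the data had been seen, and no read-level value was at hand, so the part of repeated sequence in the missing peaks was not tested further.

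**Figure D3:**
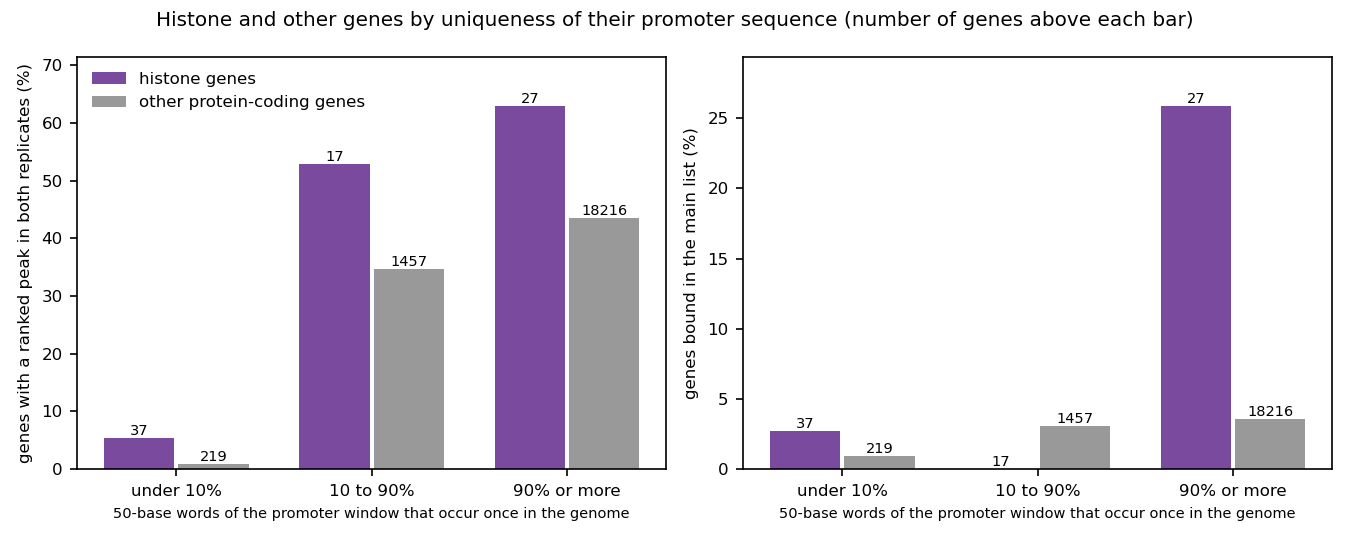
Share of genes with a ranked peak in both replicates (left) and share bound in the main list (right), in percent, by the share of 50-base promoter words that occur once in the genome. Purple bars are histone genes, grey bars are all other nuclear protein-coding genes, and the number of genes stands above each bar. The bound share of histone genes is 25.9% at 90% or more and 0 of 17 genes in the middle group.

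At genes with the most repeated promoters, the summits lay mostly on unique stretches. Of the 4 histone genes with under 10% unique words and a ranked peak in replicate 1, 3 had at least 50% unique words in the 101 bp around the summit, and all 4 such genes in replicate 2 did. Just above that limit, the peak of his-17 and his-18 in replicate 1 (promoters 11.87% and 19.01% unique) had 0.0% unique words around its summit. The his-66 peak had 58.7% unique words over the peak and 7.25% over the promoter window. At every gene under 10% with a ranked peak, the highest summit lay beyond the annotated 3' end. These were his-25, his-45, his-55 and his-66 in replicate 1, and his-25, his-47, his-65 and his-66 in replicate 2. The same held for his-16 in replicate 2, his-1 in replicate 1 and his-64 in both. Signals given for these genes in those samples thus come from peaks past the gene, not from its promoter. Other highest summits lay inside a gene. In replicate 1 that of his-5 and his-6 lay inside his-6, and that of his-17 and his-18 inside his-18. The summit for his-3 and his-4 lay inside his-4 in both samples. For his-38 and his-40 it lay inside his-38 in replicate 1 and inside his-40 in replicate 2. For his-62 it lay inside his-61 in replicate 1 and inside his-62 in replicate 2. Uniqueness did not by itself go with a peak: the H4 and H3 genes his-31 and his-32 had 92.75% and 93.7% unique words and no ranked peak in either sample.

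**Figure D4:**
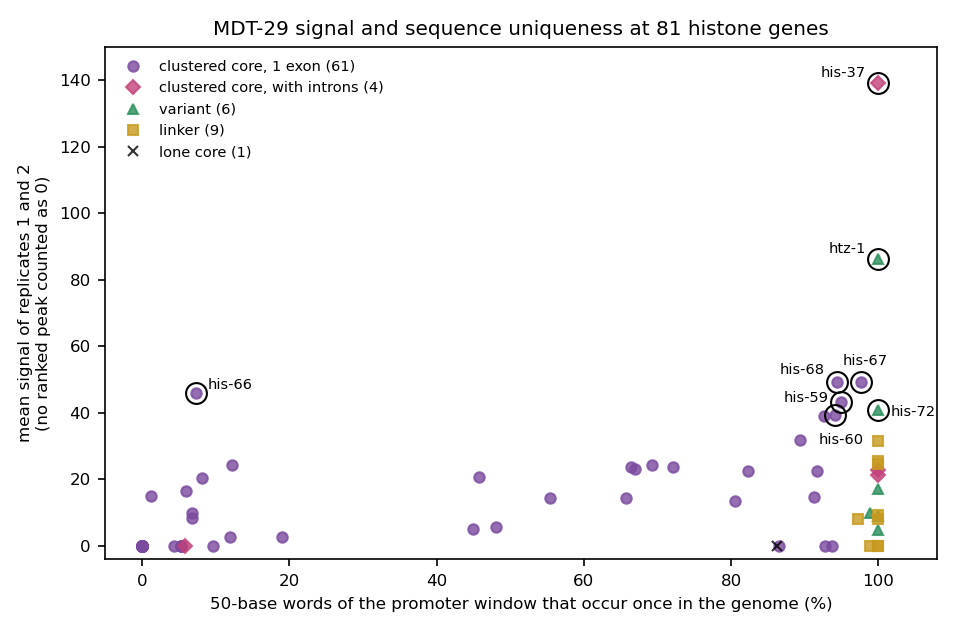
Mean ranked-list signal of replicates 1 and 2 (genes with no peak counted as 0) against the share of promoter words that occur once in the genome, for the 81 histone genes, with bound genes ringed and named. Clustered core genes spread over the whole range of uniqueness, variants and linker genes lie near 100%, and his-66 is the only bound gene at the left.

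Many of the repeated promoters are exact copies of each other. Among the 31 divergent pairs in the clusters, the 292 bp between the start codons of his-52 and his-51 on chromosome V occur unchanged between his-54 and his-53, his-22 and his-21, and his-20 and his-19. On chromosome II the H2B/H2A pairs his-15 and his-16, his-11 and his-12, and his-44 and his-43 share 227 identical bp, and the H3/H4 pairs his-13 and his-14, his-9 and his-10, and his-25 and his-26 share 272. The 253 bp between his-29 (H2B) and his-30 (H2A) are identical to those between his-34 and his-33, and the 238 bp between his-49 and his-50 to those between his-27 and his-28. The 258 bp between his-45 and his-46 differ at 1 base from those between his-55 and his-56. The bound gene his-66 is among the copies: the 305 bp between it and his-65 are identical to those between his-48 and his-47. Of that other pair only his-47 had a ranked peak, in replicate 2, with its summit also beyond the 3' end. The his-66 summit, beyond the 3' end of his-66, lay outside the copied promoter. By contrast, the 256 bp between his-59 and his-60 occur once. A copied region without a ranked peak (chrIV:8331413-8331665) and the region next to a bound peak (chrIV:7487993-7488248), both plus strand, are set side by side, with capitals as above.
his-29 and his-30: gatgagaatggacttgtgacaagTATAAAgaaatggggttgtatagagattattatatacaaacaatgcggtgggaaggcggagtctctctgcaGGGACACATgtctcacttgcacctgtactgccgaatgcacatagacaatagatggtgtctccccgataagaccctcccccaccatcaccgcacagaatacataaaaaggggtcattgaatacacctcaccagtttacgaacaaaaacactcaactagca
his-59 and his-60: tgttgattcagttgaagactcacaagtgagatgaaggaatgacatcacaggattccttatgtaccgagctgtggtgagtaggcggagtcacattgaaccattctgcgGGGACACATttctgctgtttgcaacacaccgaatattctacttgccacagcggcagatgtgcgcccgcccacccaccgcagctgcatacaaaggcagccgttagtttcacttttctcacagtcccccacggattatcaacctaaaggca

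Both regions, and the his-37 window on the opposite strand, hold the same word of 9 bases, GGGACACAT. It is the longest word shared by these 3 sequences and was found only after they had been seen. Promoters were taken from 250 bp upstream to 50 bp downstream of the 5' end. On either strand, the word occurred in those of 47 of 81 histone genes (58.0%) and of 71 of all 19973 genes (0.355%). Most genes with the word in their promoter were thus histone genes. These are counts of genes: the same word can count for both genes of a divergent pair, and copied promoters count separately. Whether most separate promoters with the word are histone promoters was not tested. Counting identical promoters once, the word was in 26 of 44 clustered core promoters (59.1%). The word was in the promoters of 6 of the 8 bound genes, all but htz-1 and his-72. Of these, his-37, his-59 and his-60 hold it by its choice, since their sequences were used to find it. That leaves his-66, his-67 and his-68 as bound genes outside the choice. It was also in 5 of 9 linker genes (his-24, hil-2, hil-3, hil-4 and hil-5) and in 1 of 5 H3.3 genes, his-69.

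The word did not mark where MDT-29 peaked in all cases. It began 2 bp from the summit at his-37 and ended 24 bp before it at his-67 and his-68, but lay 326 bp away at his-60 and his-59 and 552 bp away at his-66. It was in the summit windows of 2 of the 6 histone peaks and of 5 of all 1705 main peaks (0.293%). The his-37 window is among them by the choice of the word. Many genes with the word, his-29 to his-34 among them, had no ranked peak, so holding it did not go with a peak at every gene. Which factor, if any, binds it was not tested.

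Other promoter words were less particular to the histone genes. TATAAA was in 67.7% of clustered core promoters (65.9%, 29 of 44, with identical promoters counted once) and 38.0% of all promoters, but in only 2 of 8 bound histone promoters. CCAAT was in 50.8% of clustered core promoters and 45.5% of all. TTCNNGAA was in 0 of 65 clustered core promoters, 3 of 16 lone, variant and linker promoters and 18.9% of all. ATTTGCAT, the octamer found in some vertebrate histone promoters, was in 0 of 81 histone promoters and 2.85% of all. CACGTG was in 1 histone promoter, that of his-72, and 5.83% of all. The searched words do not contain one another, and a match is not a binding site.

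Genes that make, carry and deposit histones were looked at as a list of 25. The list also held hcp-3 and cpar-1, which encode centromeric H3 histones and are not among the 81. Neither was bound. MDT-29 was bound at 5 genes of the list (20.0%, against 3.54% of all genes). The list of replicate 1 alone gave 2 of them, lin-53 and hat-1, and that of replicate 2 alone gave 4. Those lists gave 1.69% and 2.35% of all genes. lin-53 encodes a WD40 histone chaperone of the RbAp46/48 family, with signals of 90.8 and 97.34 in replicates 1 and 2 (94.07 ± 4.626, SD, n = 2) and a summit 233 bp upstream. hat-1, whose yeast counterpart acetylates newly made histone H4, had 81.16 and 106.6 (93.89 ± 18.01, SD, n = 2), 214 bp upstream. Both were near htz-1 in signal.

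The other bound genes of the list were weaker. unc-85, for an ASF1 chaperone that carries H3 and H4, had 52.5 and 57.74, with its summit 294 bp upstream. ruvb-1, for an ATPase of chromatin remodelling complexes, had 46.56 and 54.62, 61 bp upstream. eri-1, whose human counterpart trims the hairpin end of histone messenger RNAs, had 28.06 and 41.58, 113 bp downstream of a 5' end, and was not in the conservative list. cdl-1, for the protein that binds that hairpin, was not bound, with 16.45 and 19.44. Of the 25 genes, 21 had a ranked peak in replicate 1 and 21 in replicate 2. Of all genes, 56.0% and 59.2% had one. Medians over the 25 genes were 20.6 and 24.3 where a gene without a peak counts as 0. Over the 81 histone genes both such medians were 0, and over all genes they were 9.815 and 12.91.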

How the data were processed

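MDT-29 was mapped by ChIP-seq in 2 biological replicates. The authors made peak lists on ce11 (WBcel235) from each sample or from both, with a further input, per the deposited notes; aligner and peak caller are not given in the sources used here. Each deposited list holds a score, which the authors scaled from the irreproducible discovery rate (IDR) and capped at 1000, and a signal per peak, whose scaling between samples is not stated. Ranked lists add a −log10 global IDR, deposited by the authors. Depth is unknown.

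Genes came from Ensembl release 115 and names and sequence from RefSeq. A gene's signal in a sample is its highest ranked-list signal within 500 bp of a transcript 5' end. Uniqueness used all other protein-coding genes, not a sample of them as planned. Calling by distance and counting of words were tested on simulated data. Python 3.11.15, numpy 2.4.6 and pandas 2.3.3 were used. No model or p-value was computed: with 1 group, values are descriptions, and SDs over 2 samples.

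Members, classes and lists were chosen with earlier results of these data known. The genes named are the bound genes, all variant and linker genes, the lone core gene, the highest gene of the 6 highest clusters without a bound gene (his-42, his-3 and his-4, his-38 and his-40, his-47, his-5 and his-6, his-69) and the bound genes of the deposition list. Others, such as his-16, his-31, his-62 and cdl-1, were chosen after their values were seen. Alternatives were each replicate's list, the conservative list, the 853 stronger peaks, windows of 250 and 1000 bp, any overlap of a peak, peaks taken out, and cluster gaps of 2 and 10 kb.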

Additional observations from a re-analysis of the deposited data

How the results depend on the processing

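Against 8 bound histone genes, 6 of them clustered core and 2 others, on 6 peaks, the leave-one-out counts from a single sample's list ranged from 2 to 7 genes, 1 to 6 clustered core, 1 other in either, and 2 to 5 peaks. The lower values came from replicate 1 alone. The 853 stronger peaks gave 2 genes, 1 clustered core, 1 other and 2 peaks, and a 250 bp window gave 4 genes, 3 clustered core, 1 other and 4 peaks. The cause was not tested. The conservative list, a 1000 bp window (10 genes on 7 peaks), any overlap, the peaks taken out and cluster gaps of 2 or 10 kb moved these counts by less than 1.5 times. Counting only single-exon genes as clustered core, a rule added after seeing the data, gave 5 and 3.

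The median signal over all 81 genes was 0 in both samples because most genes lacked a ranked peak in each. With a 1000 bp window it was 15.38 and 16.64 in replicates 1 and 2, among genes with a peak 22.03 and 26.99, and with each peak counted once 19.96 and 28.22.

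No paired analysis was possible because there is 1 group. With 2 samples, SDs are rough, and a gene without a ranked peak is not thereby shown to lack MDT-29.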
